A study of Homo sapiens with 3 samples.

Results

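SR proteins and heterogeneous nuclear ribonucleoproteins (hnRNPs) are the main RNA-binding regulators of alternative splicing, and the mRNAs that encode them were examined here as one group. The group was fixed by gene symbol and not by any measured value, but it was chosen with earlier results of these data known. It holds 33 genes, of which 32 had rows in the deposited tables: 13 SR protein genes and 19 hnRNP genes, with 373 transcripts, out of 52992 genes in all. SRSF8 had no matching row and was not analysed here. All 32 passed the minimum of 10 estimated counts on average that left 14082 genes for comparison.

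J82, an established cell line from a human bladder cancer, supplied the RNA. Cells were lysed, and the lysate was offered to an affinity tag, glutathione S-transferase (GST), alone or fused to the RNA-binding protein ZFP36L1. The 3 groups, with 1 library each, were RNA bound by GST-ZFP36L1 wildtype, RNA bound by the GST-ZFP36L1-Ala mutant, and RNA bound by control GST. The tag and the cell line were shared by all 3 groups, binding took place in lysate, and the residues replaced in the mutant are not given in the labels.

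ZFP36L1 is a zinc finger protein that binds AU-rich elements, whose core is UAUUUAU, in the 3' untranslated region (3' UTR) of mRNAs and promotes decay of the bound mRNA. SR proteins, which carry arginine- and serine-rich tails, mostly bind exonic enhancers and promote the use of nearby splice sites, while hnRNPs often bind silencers and oppose them. Many genes of both families regulate their own mRNAs by splicing them into forms that carry a premature stop codon and are degraded by nonsense-mediated decay (NMD), or that keep an intron.

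The main 3' UTR of a gene was that of its coding transcript with the highest mean level per length. Of the 32 main 3' UTRs 8 held UAUUUAU on the sense strand (25%), against 31.1% of 11461 genes. The 8 genes were SRSF3, SRSF7, SRSF10, SRSF11, SRSF12, TRA2A, TRA2B and, as the only hnRNP, HNRNPR. The choice favours short transcripts: for HNRNPLL it took HNRNPLL-208, with a 3' UTR of 112 bases, while HNRNPLL-205 held a site. With any coding transcript counted, 12 genes held one. The sequences below are a selection made with the results known. They are sites of SRSF7, SRSF10, SRSF11 and TRA2B, which took a larger share with the wild-type protein, then sites of longer isoforms of hnRNP genes. Not shown are the sites of SRSF12, which also took a larger share, and of HNRNPC-201, whose gene was lower with the wild-type protein. The sites of SRSF3, TRA2A and HNRNPR, whose ratios over GST lay below 0, are not shown either. Each sequence shown is read 5′ to 3′ from the GENCODE 29 transcript sequence as DNA, and the capitals mark the motif, in which T stands for U. On GRCh38 the SRSF7 site lies at chr2:38743675-38743701 on the minus strand, the SRSF10 site at chr1:23967034-23967060 on the minus strand, and the SRSF11 sites at chr1:70252020-70252046 and chr1:70252879-70252905 on the plus strand. The TRA2B site lies at chr3:185915974-185916000 on the minus strand. The HNRNPLL site is at chr2:38563722-38563748 and the HNRNPA2B1 site at chr7:26190849-26190875, both on the minus strand, and the HNRNPA1 site is at chr12:54286489-54286515 on the plus strand. All lie in annotated 3' UTRs.
SRSF7-201: ctggcaggctTATTTATctgttgcact
SRSF10-207: attcagcaaaTATTTATtgagccctta
SRSF11-202, first site: accgtatttgTATTTATttacgctact
SRSF11-202, second site: attcttaggaTATTTATtttcagtgaa
TRA2B-205: gaatttgtagTATTTATatataaagtt
HNRNPLL-205: ataacttgtaTATTTATtattttaatg
HNRNPA1-203: tttgccctttTATTTATcttcctttga
HNRNPA2B1-201: acatttgttgTATTTATggttgtaact

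The libraries held 19845386 estimated counts for wild-type ZFP36L1, 19153483 for the Ala mutant and 19137867 for GST. Counts of the 32 genes ran between 69 (SRSF12 with GST) and 49215 (HNRNPA1 with GST). Mitochondrial genes took 14.9% of counts with the wild-type protein, 7.22% with the mutant and 10.2% with GST. Of 12 bladder epithelial markers 6 reached 10 counts in each library, while KRT19 and UPK3A were listed at 0 in all 3. The summed level of the 12, carried by KRT18, KRT8 and KRT7, was 137 TPM (a level per length, scaled to a fixed total) with the wild-type protein, 1093 TPM with the mutant and 724 TPM with GST. PPARG went the other way, with 73.7 TPM with the wild-type protein, 13.3 TPM with the mutant and 10.8 TPM with GST, as did EPCAM. Of 6 mesenchymal markers 4 reached 10 counts in each library. Their summed level was 98.3 TPM with the wild-type protein, 645 TPM with the mutant and 1012 TPM with GST, while single markers went both ways. The part of these differences in the results was not tested. None of 7 leukocyte, erythroid and hepatocyte markers reached 10 counts. The GST table carries another run code than the other tables, and the effects of run and of GST cannot be told apart. Ratios below are log2 ratios of estimated counts scaled with TMM (trimmed mean of M values), followed by a 95% counting interval. A gene counted as higher or lower at a ratio of at least 2 either way with an interval that excluded 1. There was no replicate check, as each group had 1 library, and the intervals cover counting error only.

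Setting wild-type ZFP36L1 against GST asked which of these mRNAs the fusion protein recovered beyond the tag. Of 13 SR protein mRNAs 3 were at least 2-fold higher (23.1%) and 0 lower, and of 19 hnRNP mRNAs 0 were higher and 6 lower (31.6%). Together 3 of 32 were higher and 6 lower, where 25.5% of all genes were higher and 34.2% lower, so neither the share of higher SR proteins nor that of lower hnRNPs exceeded the background. The ratio was above 0 for 7 of 13 SR proteins and 4 of 19 hnRNPs, beside 6949 of all 14082 genes. The median log2 ratio was 0.44 for SR proteins and -0.41 for hnRNPs, beside -0.04 for all genes. Each family's median kept its side of 0 under all 9 alternatives in processing, between 0.10 and 0.55 for SR proteins and between -0.64 and -0.30 for hnRNPs. The SR protein median came close to that of all genes with TPM (0.10 beside 0.06) and with a minimum of 100 counts (0.11 beside 0.06). SR protein mRNAs took 0.408% of gene counts with the wild-type protein, 0.196% with the mutant and 0.227% with GST. Much of that was SRSF2: without it the share was 0.195% with the wild-type protein, 0.138% with the mutant and 0.173% with GST. The hnRNP mRNAs took 0.698% with the wild-type protein, 0.720% with the mutant and 1.13% with GST. In these libraries a smaller share of one RNA and a larger share of others cannot be told apart.

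**Figure D1:**
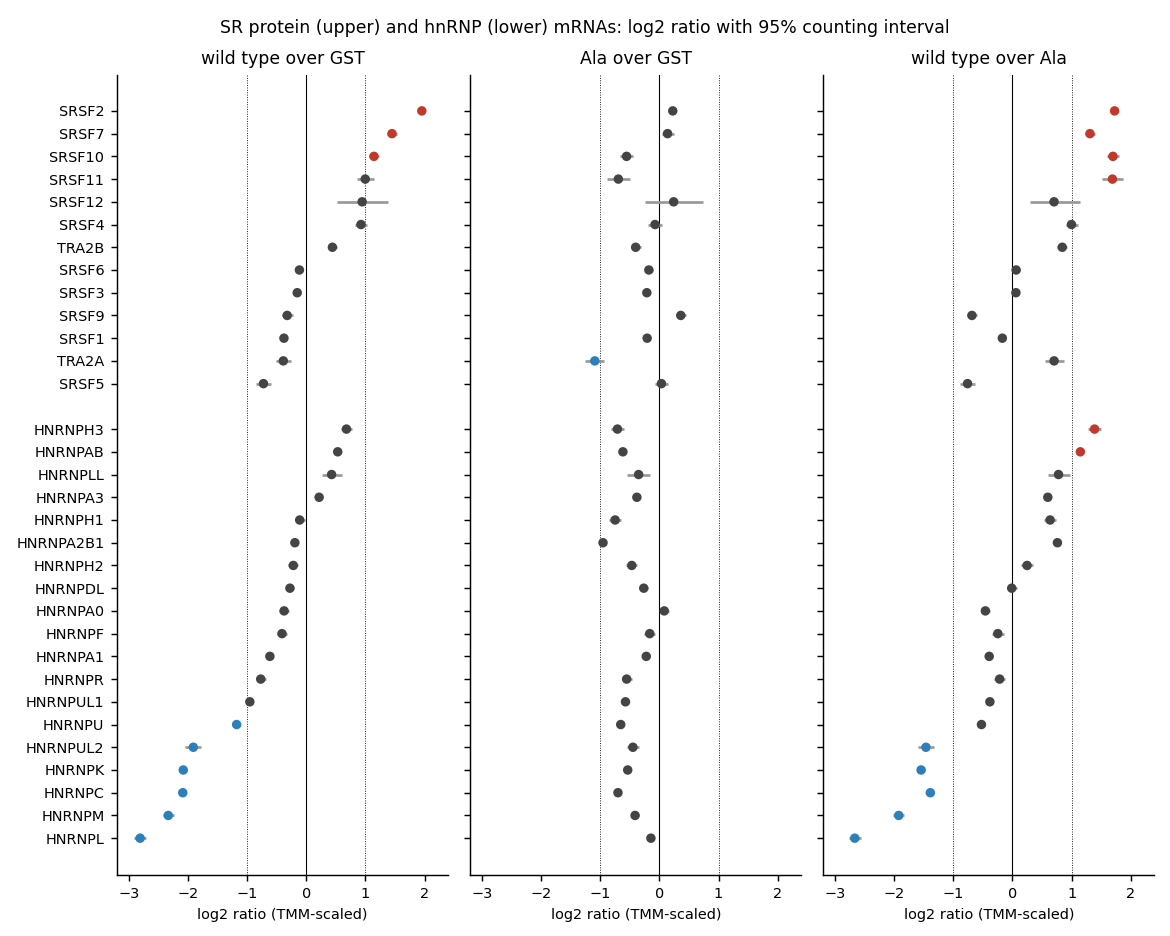
Log2 ratio of TMM-scaled estimated counts (x axis) for each SR protein and hnRNP mRNA (rows), in 3 panels for wild type over GST, Ala mutant over GST and wild type over Ala mutant. Points are single ratios with 95% counting intervals as grey bars, red for at least 2-fold higher, blue for at least 2-fold lower and dark grey for neither, with dotted lines at 2-fold. SRSF2 stands at 1.95 and HNRNPL at -2.81 in the first panel, and 1 point is coloured in the middle panel.

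The SR protein mRNAs that were higher with wild-type ZFP36L1 were SRSF2, SRSF7 and SRSF10. SRSF2 (SC35), which binds exonic enhancers and regulates its own mRNA through splicing, had 40582 counts with the wild-type protein, 10506 with the mutant and 9903 with GST. Its log2 ratio was 1.95 (1.92 to 1.98) over GST and 1.73 (1.70 to 1.76) over the mutant. It was the most abundant of the 32 with the wild-type protein at 2935 TPM, against 537 TPM with the mutant and 445 TPM with GST.

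SRSF7 (9G8), which also serves as an adaptor for mRNA export, had 4661 counts with the wild-type protein, 1610 with the mutant and 1613 with GST. That is 2.73-fold over GST (log2 1.45, 1.37 to 1.53) and 2.48-fold over the mutant (log2 1.31, 1.23 to 1.39). SRSF3 (SRp20), its closest relative and an export adaptor too, stood near 0 in every comparison although its 3' UTR also held a site. It had 6763 counts with the wild-type protein, 5566 with the mutant and 7110 with GST, and a log2 ratio of -0.15 (-0.20 to -0.11) over GST.

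SRSF10 (SRp38), which represses splicing when it is dephosphorylated, had 3953 counts with the wild-type protein, 1043 with the mutant and 1690 with GST. The library with the wild-type protein was 2.21-fold over GST (log2 1.14, 1.06 to 1.23) and 3.25-fold over the mutant (log2 1.70, 1.60 to 1.80). SRSF11, a related SR factor, had 1244 counts with the wild-type protein, 330 with the mutant and 589 with GST. It lay just short of 2-fold over GST (log2 1.0, 0.85 to 1.14) and was 3.23-fold over the mutant (log2 1.69, 1.52 to 1.87). Over GST it passed 2-fold under 5 of 9 alternatives.

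SRSF4 (SRp75), one of the longest SR proteins, had 2632 counts with the wild-type protein, 1129 with the mutant and 1310 with GST. Its log2 ratios of 0.92 (0.83 to 1.02) over GST and 1.0 (0.90 to 1.10) over the mutant both lay just under 2-fold, and its main 3' UTR held no UAUUUAU. It passed 2-fold over GST under 2 of 9 alternatives and over the mutant under 6 of 9. Its relatives SRSF5 and SRSF6 did not share this position. SRSF6 stood at -0.12 (-0.18 to -0.05) over GST. With transcripts of the same length only it stood at -3.22, but its coding transcript SRSF6-201 was then left out. That value is of its NMD transcript alone, with 8 counts with the wild-type protein and 75 with GST. SRSF5 had 931 counts with the wild-type protein, 1351 with the mutant and 1454 with GST, with a ratio of -0.73 (-0.85 to -0.61) over GST, the lowest among SR proteins by gene counts. That ratio was -1.21 by TPM and turned to 0.16 with coding transcripts only.

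SRSF9, with 1711 counts with the wild-type protein, 2359 with the mutant and 2024 with GST, and its relative SRSF1, a prototype SR protein, lay below 0 over GST as well (-0.32, -0.42 to -0.23, and -0.38, -0.43 to -0.33). With coding transcripts only SRSF9 was at least 2-fold lower than with GST, at -1.21. SRSF12, a relative of SRSF10, was the least abundant, with 141 counts with the wild-type protein, 74 with the mutant and 69 with GST, and its interval was the widest (log2 0.94, 0.52 to 1.39, over GST).

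TRA2A and TRA2B, the human homologues of the Drosophila splicing regulator transformer-2, bind GA-rich enhancers. TRA2B had 3784 counts with the wild-type protein, 1809 with the mutant and 2634 with GST, a log2 ratio of 0.44 (0.37 to 0.51) over GST. TRA2A had 905 counts with the wild-type protein, 476 with the mutant and 1120 with GST, a log2 ratio of -0.39 (-0.52 to -0.26) over GST. Both were lowest with the mutant, and over the mutant the ratios were 0.84 (0.76 to 0.92) for TRA2B and 0.70 (0.54 to 0.87) for TRA2A.

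The 6 hnRNP mRNAs that were lower with wild-type ZFP36L1 than with GST were HNRNPL, HNRNPM, HNRNPC, HNRNPK, HNRNPUL2 and HNRNPU. HNRNPL, which binds CA repeats, had 894 counts with the wild-type protein, 4867 with the mutant and 5928 with GST. It was 7.02-fold lower than with GST (log2 -2.81, -2.91 to -2.71) and 6.35-fold lower than with the mutant (log2 -2.67, -2.77 to -2.56). Its paralogue HNRNPLL, known for splicing of CD45 in lymphocytes, lay on the other side, with 709 counts with the wild-type protein, 354 with the mutant and 498 with GST, a log2 ratio of 0.43 (0.26 to 0.60) over GST. By TPM, HNRNPLL was lower with the wild-type protein than with GST (-0.44).

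HNRNPM, which binds GU-rich RNA, had 1165 counts with the wild-type protein, 3788 with the mutant and 5555 with GST, 5.05-fold lower than with GST (log2 -2.34, -2.43 to -2.24). HNRNPC, which binds uridine tracts on nascent transcripts, had 10710 counts with the wild-type protein, 24043 with the mutant and 43085 with GST. That was 4.26-fold lower than with GST (log2 -2.09, -2.12 to -2.06) and 2.62-fold lower than with the mutant (log2 -1.39, -1.42 to -1.36). Of the HNRNPM counts, 757 with the wild-type protein, 79 with the mutant and 2036 with GST were on HNRNPM-216, a transcript of 1 exon without a coding annotation. The 3 libraries stood in one order for all 6 lower genes, lowest with the wild-type protein and highest with GST.

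HNRNPK, which binds C-rich RNA through KH domains, had 2635 counts with the wild-type protein, 6593 with the mutant and 10538 with GST, a log2 ratio of -2.08 (-2.14 to -2.02) over GST. HNRNPU, a large scaffold attachment factor, had 4765 counts with the wild-type protein, 5874 with the mutant and 10190 with GST (log2 -1.18, -1.23 to -1.13, over GST). Both of its relatives were on the same side: HNRNPUL2 with 598 counts with the wild-type protein, 1414 with the mutant and 2127 with GST (log2 -1.91, -2.05 to -1.78), and HNRNPUL1 at -0.96 (-1.0 to -0.91), just short of 2-fold.

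The hnRNP A/B and H families lay closer to 0. HNRNPA1, which binds exonic silencers, had 33979 counts with the wild-type protein, 38257 with the mutant and 49215 with GST (log2 -0.62, -0.64 to -0.60, over GST). HNRNPA2B1 had 27756 counts with the wild-type protein, 14048 with the mutant and 29994 with GST (-0.19, -0.22 to -0.17). HNRNPA3 stood at 0.22 by counts and at -1.58 by TPM, and HNRNPAB, with 17387 counts with the wild-type protein, 6725 with the mutant and 11371 with GST, stood at 0.53 (0.50 to 0.56). Among the G-run binders, HNRNPH3 was at 0.68 (0.59 to 0.77) but at -1.18 with coding transcripts only, HNRNPH1 at -0.11 (-0.20 to -0.03), HNRNPH2 at -0.22 (-0.31 to -0.14) and HNRNPF at -0.41 (-0.50 to -0.32). The remaining hnRNPs, HNRNPDL, HNRNPA0 and HNRNPR, lay between -0.77 and -0.28. Several ratios over GST changed side by TPM, to between 0.01 and 0.14 for SRSF1, SRSF3, SRSF6, HNRNPA2B1 and HNRNPH1, and HNRNPDL stood at 0.19 with transcripts of the same length only.

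**Figure D2:**
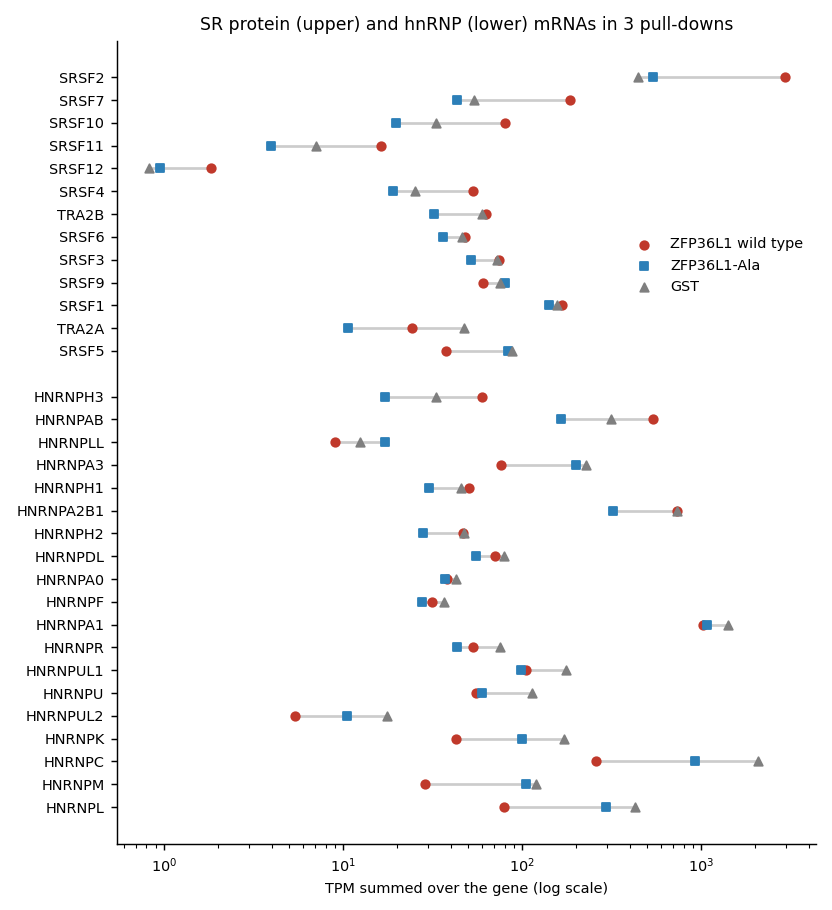
Level of each mRNA as TPM summed over its transcripts (x axis, log scale), with circles for wild-type ZFP36L1, squares for the Ala mutant and triangles for GST, 1 library each, and a grey line joining the lowest and highest. SRSF2 reaches 2935 TPM with the wild-type protein, and HNRNPC stands at 258 TPM with the wild-type protein, against 925 TPM with the mutant and 2094 TPM with GST.

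The comparison of the Ala mutant with GST asked whether the mutated protein recovered these mRNAs beyond the tag. None of the 32 was at least 2-fold higher, and 1 was lower, where 9.0% of all genes were higher and 5.13% lower. The log2 ratio was below 0 for 26 of the 32, beside 6634 of all 14082 genes, with a median of -0.39 beside 0.04 for all genes. TRA2A was the one lower gene, at 2.13-fold (log2 -1.09, -1.25 to -0.94). HNRNPA2B1 followed at -0.95 (-0.98 to -0.93), and it passed 2-fold under 5 of 9 alternatives. HNRNPH1 had 2104 counts with the wild-type protein, 1160 with the mutant and 2149 with GST, a log2 ratio of mutant over GST of -0.75 (-0.85 to -0.65) that turned to 0.17 with coding transcripts only. HNRNPC stood at -0.70 (-0.72 to -0.68). Ordered by the interval bound nearest 0, the highest were SRSF9 at 0.36 (0.27 to 0.45), SRSF2 at 0.23 (0.19 to 0.27), SRSF7 at 0.14 (0.04 to 0.24) and HNRNPA0 at 0.08 (0.01 to 0.16), the last with 2397 counts with the wild-type protein, 2822 with the mutant and 2939 with GST. SRSF12 stood at 0.24 with a wider interval (-0.25 to 0.74). SRSF2 turned to -2.07 with coding transcripts only, SRSF7 changed sign under 2 of 9 alternatives and HNRNPA0 under 3 of 8.

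The direct comparison of both forms of ZFP36L1 asked what the mutation altered. With the wild-type protein 6 of the 32 were at least 2-fold higher and 5 lower than with the mutant, where 30.1% of all genes were higher and 36.1% lower. SR proteins accounted for 4 of the higher and 0 of the lower, and hnRNPs for 2 of the higher and 5 of the lower. The median log2 ratio was 0.70 for SR proteins and -0.25 for hnRNPs, beside -0.04 for all genes, but the hnRNP median turned to 0.07 with totals without abundant genes, 0.03 with TPM and 0.09 with transcripts of the same length only. The SR protein median stayed between 0.62 and 1.03. The comparisons share libraries, so they do not support each other. The 4 SR protein mRNAs were SRSF2, SRSF10, SRSF11 and SRSF7, as above. The hnRNPs were HNRNPH3, with 2875 counts with the wild-type protein, 941 with the mutant and 1697 with GST (2.62-fold over the mutant, log2 1.39, 1.28 to 1.5), and HNRNPAB (2.22-fold, log2 1.15, 1.11 to 1.19). HNRNPH3 turned to -0.54 when its protein-coding transcripts alone were summed. HNRNPH3-211, without a coding annotation, had 2266 counts with the wild-type protein, 202 with the mutant and 408 with GST, while the coding transcript HNRNPH3-201 had 595 with the wild-type protein, 699 with the mutant and 1223 with GST. Lower were HNRNPL, HNRNPM (3.79-fold, log2 -1.92, -2.02 to -1.83), HNRNPK (2.92-fold, log2 -1.55, -1.61 to -1.48), HNRNPUL2 (log2 -1.46, -1.60 to -1.33) and HNRNPC. HNRNPU at -0.52 (-0.58 to -0.47), SRSF9 at -0.69 (-0.78 to -0.60) and SRSF5 at -0.76 (-0.88 to -0.64) were the next lowest. With coding transcripts only SRSF5 stood at 0.26 and SRSF9 at -1.71, past 2-fold.

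SRSF2 stood apart by its transcripts. Of its counts, 96.5% (Clopper-Pearson interval 96.4% to 96.7%) lay on transcripts annotated as retained intron with the wild-type protein, 65.9% (65.0% to 66.8%) with the mutant and 75.1% (74.3% to 76.0%) with GST. SRSF2-209 had 15585 counts with the wild-type protein, 233 with the mutant and 204 with GST, a log2 ratio of 6.17 over GST. SRSF2-210 had 17268 counts with the wild-type protein, 3790 with the mutant and 1994 with GST (log2 3.03 over GST). These 2 transcripts lie wholly inside what coding transcripts of SRSF2 annotate as 3' UTR, as 100% of their bases do. None of the sequence of either is unique within the gene (0% of 31-mers), so the split between them rests on the model of kallisto.

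The other SRSF2 forms behaved differently. SRSF2-206, which reaches into the coding region, had 6328 counts with the wild-type protein, 2896 with the mutant and 5243 with GST (log2 0.19 over GST). The NMD transcript SRSF2-208 had 643 counts with the wild-type protein, 3512 with the mutant and 2096 with GST, a log2 ratio of -1.79 over GST and -2.67 over the mutant. The coding transcript SRSF2-202 had 681 counts with the wild-type protein, 38 with the mutant and 331 with GST. Over coding transcripts alone SRSF2 stood at 0.94 over GST and no longer passed 2-fold. The 3' UTR of SRSF2-202 held no UAUUUAU and 2 copies of AUUUA, where 26.1% of 3' UTRs within 20% of its length held UAUUUAU. MFSD11 overlaps SRSF2 on the opposite strand and shares 32% of its 31-mers. It had 270 counts with the wild-type protein, 47 with the mutant and 61 with GST, and strand use in counting is not given, so reads of the overlap cannot be told apart.

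**Figure D3:**
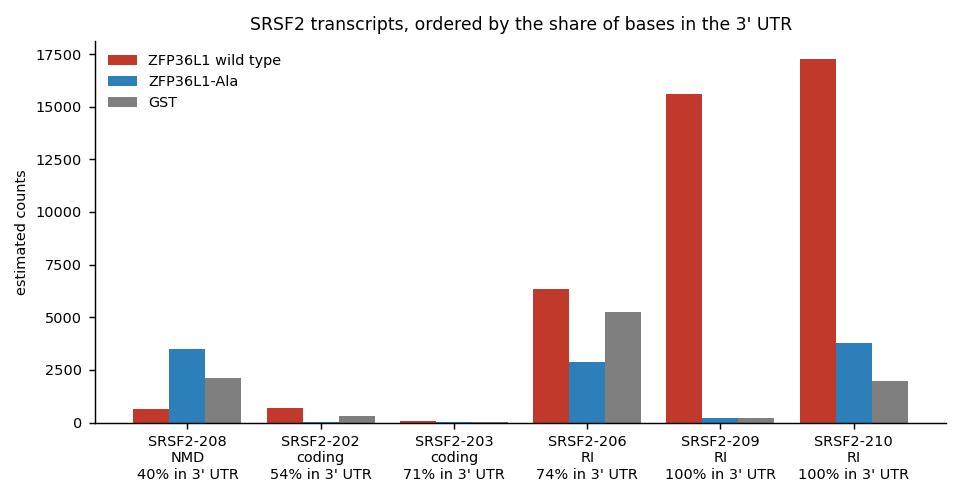
Estimated counts (y axis) of 6 SRSF2 transcripts, ordered along the x axis by the share of bases that lie in the 3' UTR of coding transcripts, with bars for wild-type ZFP36L1, the Ala mutant and GST, 1 library each (NMD, nonsense-mediated decay; RI, retained intron). The bars of SRSF2-209 and SRSF2-210 reach 15585 and 17268 with the wild-type protein, and the NMD transcript SRSF2-208 is highest with the mutant.

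Transcript classes were then compared over all members, because both families are known for NMD and retained-intron forms. Transcripts annotated as retained intron took 21.1% of member counts in the 3 classes (protein coding, NMD, retained intron) with the wild-type protein, 11.6% with the mutant and 13.4% with GST. Over all genes they took 6.08% with the wild-type protein, 7.2% with the mutant and 6.63% with GST. The order of the libraries rested on single genes. Without SRSF2 the retained-intron share was 2.57% with the wild-type protein, 7.90% with the mutant and 10.7% with GST. Without HNRNPC it was 21.5% with the wild-type protein, 8.59% with the mutant and 6.97% with GST, and without both genes 1.78% with the wild-type protein, 3.97% with the mutant and 3.42% with GST. NMD transcripts took 1.83% with the wild-type protein, 4.72% with the mutant and 2.52% with GST, and without SRSF2 they took 1.89% with the wild-type protein, 2.77% with the mutant and 1.73% with GST.

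Of 132 member transcripts with at least 10 counts on average, 86 were protein coding, and of these 8 were at least 2-fold higher and 41 lower with the wild-type protein than with GST. Among all coding transcripts 24.4% were higher and 42.6% lower. Of 14 NMD transcripts 1 was higher and 8 lower (22.6% and 44.8% of all NMD transcripts), and of 20 retained-intron transcripts 6 were higher and 8 lower (18.1% and 48.3% of all). Over the mutant, 18 coding transcripts were higher and 40 lower with the wild-type protein (28.9% and 44.5% of all), as were 3 and 9 NMD transcripts (23.4% and 50.8%) and 7 and 8 retained-intron transcripts (17.6% and 52.8%). With the mutant against GST, 15 coding transcripts were higher and 18 lower (18.3% and 13.7% of all), 4 NMD transcripts were higher and 2 lower (26.4% and 14.2%), and 3 retained-intron transcripts were higher and 6 lower (23.2% and 10.5%).

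Many transcripts were listed at 0: 36 of the 132 (27.3%) with the wild-type protein, 12 (9.09%) with the mutant and 10 (7.58%) with GST, where 14.5% of all transcripts were at 0 with the wild-type protein, 4.75% with the mutant and 5.32% with GST. HNRNPC-223, for example, was listed at 0 with the wild-type protein, against 6157 with the mutant and 9112 with GST, and HNRNPA1-201 at 0, against 2303 with the mutant and 2645 with GST. Of the HNRNPC counts with the wild-type protein 9071 were on 1 transcript, HNRNPC-204, which had 2184 with the mutant and 3084 with GST.

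In HNRNPC the retained-intron transcript HNRNPC-206 had 1491 counts with the wild-type protein, 7022 with the mutant and 18547 with GST. The retained-intron share of the gene was 14.0% (13.4% to 14.7%) with the wild-type protein, 29.2% (28.6% to 29.8%) with the mutant and 43.1% (42.6% to 43.5%) with GST. In HNRNPA3 the retained-intron transcript HNRNPA3-205 was listed at 0 with the wild-type protein and had 1392 counts with the mutant and 1684 with GST. Its coding transcript HNRNPA3-202 had 9476 with the wild-type protein, 2672 with the mutant and 4691 with GST.

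SRSF9 and TRA2B went the other way. The retained-intron share of SRSF9 was 56.9% (54.5% to 59.2%) with the wild-type protein, 17.6% (16.0% to 19.1%) with the mutant and 21.3% (19.5% to 23.1%) with GST. SRSF9 shares 44.8% of its 31-mers with GATC, which overlaps it and had 1867 counts with the wild-type protein, 464 with the mutant and 546 with GST. TRA2B-207, a retained-intron transcript, had 361 counts with the wild-type protein and was listed at 0 with the mutant and with GST. In HNRNPL, where retained-intron forms held most counts in every library, the share was 80.3% (77.6% to 82.9%) with the wild-type protein, 57.0% (55.6% to 58.4%) with the mutant and 65.2% (64.0% to 66.4%) with GST.

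NMD forms differed most in HNRNPH1, SRSF2 and HNRNPM. HNRNPH1-218 had 1404 counts with the wild-type protein, 78 with the mutant and 1017 with GST. The NMD share of HNRNPH1 was thus 67.0% (65.0% to 69.0%) with the wild-type protein, 6.72% (5.35% to 8.32%) with the mutant and 47.3% (45.2% to 49.5%) with GST. HNRNPM-214 had 350 counts with the wild-type protein, 2880 with the mutant and 2133 with GST, while the coding transcripts were fewer in every library. Of the counts in the 3 classes, NMD took 85.8% (82.0% to 89.0%) with the wild-type protein, 77.6% (76.3% to 79.0%) with the mutant and 60.6% (59.0% to 62.2%) with GST. This order depends on the denominator, which leaves out HNRNPM-216: of all HNRNPM counts NMD took 30.0% (27.4% to 32.8%) with the wild-type protein, 76.0% (74.6% to 77.4%) with the mutant and 38.4% (37.1% to 39.7%) with GST. SRSF7-207 had 684 counts with the wild-type protein, 75 with the mutant and 189 with GST, the highest NMD ratio over GST at log2 1.77. SRSF6-202 had 8 counts with the wild-type protein, 232 with the mutant and 75 with GST.

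**Figure D4:**
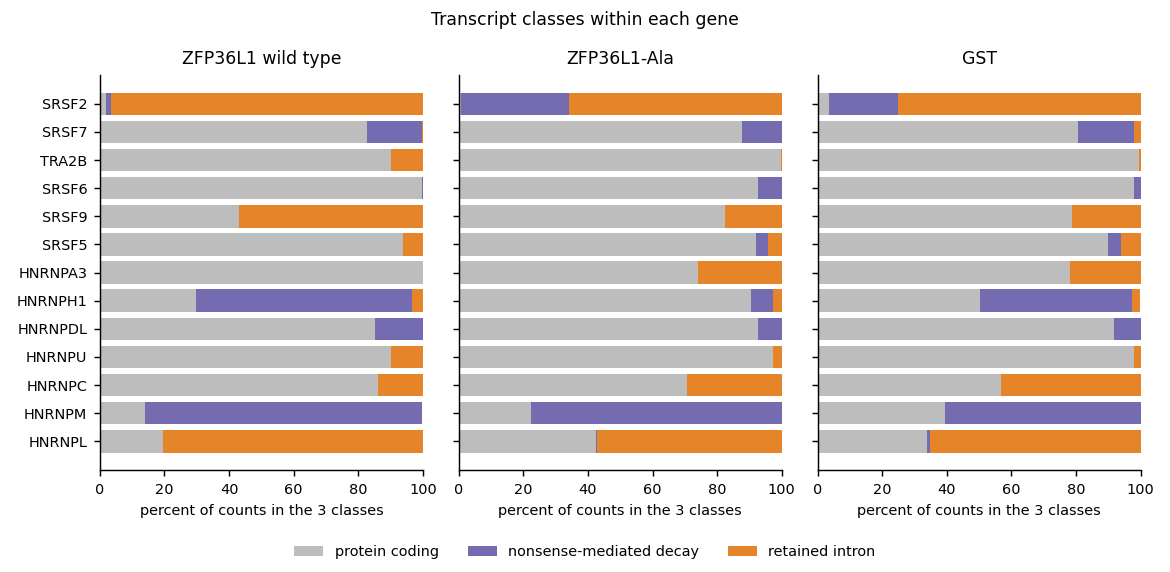
Percent of each gene's counts in the 3 classes protein coding, nonsense-mediated decay and retained intron (x axis) that lay in each class, other transcripts left out, in 3 panels for wild-type ZFP36L1, the Ala mutant and GST, for the 13 members in which an NMD or retained-intron share reached 5% in any library. The SRSF9 retained-intron bar spans 56.9% with the wild-type protein, against 17.6% with the mutant and 21.3% with GST.

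A shift of at least 20 percentage points in a class share was counted for 23 members per class, a limit chosen with the data in view. For retained introns, SRSF2 and SRSF9 were higher and HNRNPC and HNRNPA3 lower with the wild-type protein than with GST, 2 of 23 each way, where 4.32% of all genes with such transcripts were higher and 1.92% lower. Over the mutant, HNRNPL, SRSF9 and SRSF2 were higher and HNRNPA3 lower (4.08% and 2.75% of such genes). For NMD, HNRNPM was higher and 0 members lower over GST (3.52% and 3.32% of genes with NMD transcripts), and over the mutant HNRNPH1 was higher and SRSF2 lower (3.75% and 3.85%). With the mutant against GST, HNRNPH1 was lower for NMD and 0 members higher (1.91% of such genes each way), and 0 of 23 members differed for retained introns (1.72% of genes with such transcripts higher, 0.958% lower). With all counts of a gene as the denominator every call but that of HNRNPM held. HNRNPM turned to -8.35 points over GST, short of the limit, and the wild-type protein was 46.0 points below the mutant and the mutant 37.6 points above GST.

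Members with UAUUUAU in the main 3' UTR had a median log2 ratio of wild type over GST of 0.69 (8 genes), and the 24 without had one of -0.35. Over the mutant the medians were 0.77 with a site and -0.21 without. The differences of 1.04 and 0.98 lay below those over all genes, 1.65 over GST and 2.0 over the mutant. Mutant over GST gave -0.48 with a site and -0.37 without. With sites counted in any coding transcript, in 12 genes, the difference was 0.49 over GST and 0.94 over the mutant. HNRNPLL was among the 24 without a site, although site-bearing isoforms held 99.3% of its coding counts with the wild-type protein. SR proteins made up 7 of the 8 genes with a site, and hnRNPs 18 of the 24 without, so the medians by site mix site and family. Among SR proteins alone they were 0.94 with a site and -0.22 without over GST, and 0.84 and -0.06 over the mutant. The 1 hnRNP with a site stood at -0.77 over GST, and the 18 without had a median of -0.39. Of the 8 genes with a site 2 were at least 2-fold higher over GST and 0 lower, where 47.3% of all genes with a site were higher and 8.65% lower. SRSF2 was the only one of the 24 without a site that was higher, and 6 of the 24 were lower, where 17.8% of all genes without a site were higher and 45.2% lower. Long 3' UTRs without a site included those of HNRNPA3 (4566 bases, where 70.5% of 3' UTRs of like length held one) and SRSF1 (2387 bases, 50.4%). HNRNPR held 5 sites and stood at -0.77 over GST, but 1331 of its 1771 counts with the wild-type protein were on HNRNPR-209, a transcript without a coding annotation. Across the 32 genes Spearman's rho between GC content and the ratio was -0.46 for wild type over GST and 0.05 for the mutant over GST, beside -0.60 and 0.54 over all genes. The points share their libraries, and the part of GC content in the differences was not tested.

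Isoforms of one gene were compared because they differ in whether the 3' UTR holds a site. In 8 members with coding isoforms of both kinds, the site-bearing share was higher with the wild-type protein than with the mutant in 8 of 8, with intervals that did not overlap, where 54.7% of 632 such genes were higher and 10.4% lower. Against GST it was higher in 7 and lower in SRSF7 (47.4% and 17.4% of all such genes). With the mutant it was higher than with GST in 2, TRA2B and SRSF10, and lower in 5 (11.4% and 32.4%). Only isoforms of equal length in the tables and GENCODE 29 entered, and the HNRNPC calls rest on that. With isoforms of any length, the share was higher with the wild-type protein in 7 of 8 over the mutant, and higher in 6 and lower in 2 over GST. The isoform comparison was chosen once the data were known.

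The site-bearing isoforms of HNRNPLL, mainly HNRNPLL-205, made up 99.3% of its coding counts with the wild-type protein, 49.4% with the mutant and 81.7% with GST. For TRA2B the share was 98.7% with the wild-type protein, 87.3% with the mutant and 79.4% with GST. For HNRNPR it was 100% with the wild-type protein, 57.7% with the mutant and 59.1% with GST. For SRSF10 it was 75.8% with the wild-type protein, 66.9% with the mutant and 58.9% with GST. TRA2B and SRSF10 thus differed less than HNRNPLL between wild type and mutant.

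In the abundant hnRNP A/B genes the site lies in a long minor isoform. HNRNPA1-203 had 4933 counts with the wild-type protein, 1739 with the mutant and 4087 with GST, while the main isoform HNRNPA1-204 had 28554 with the wild-type protein, 30367 with the mutant and 40170 with GST. The site-bearing share was 14.6% with the wild-type protein, 4.63% with the mutant and 8.32% with GST. HNRNPA2B1-201 had 4188 counts with the wild-type protein, 1080 with the mutant and 4281 with GST, a share of 15.2% with the wild-type protein, 7.80% with the mutant and 14.4% with GST. For SRSF7 the share was 83.9% with the wild-type protein, 70.6% with the mutant and 87.7% with GST. The HNRNPC share of 72.3% with the wild-type protein rests on 137 counts, because HNRNPC-204, without a site in GENCODE 29, differed in length from it and was left out. With HNRNPC-204 the share was 1.08% with the wild-type protein, 1.04% with the mutant and 2.84% with GST, so that it no longer differed between wild type and mutant beyond counting error and was lower than with GST.

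**Figure D5:**
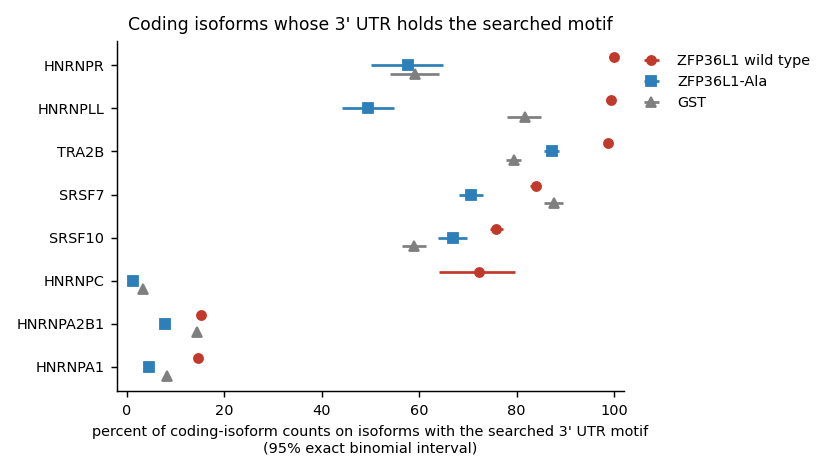
Percent of a gene's coding-isoform counts on isoforms whose 3' UTR holds the searched motif (x axis), for 8 members, with circles for wild-type ZFP36L1, squares for the Ala mutant and triangles for GST and bars for 95% exact binomial intervals. Each circle lies right of its square, that of HNRNPC on 137 counts, and the SRSF7 circle at 83.9% lies left of its triangle at 87.7%.

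Other genes of splicing were read from lists of related factors. Of 8 kinases that phosphorylate SR proteins, 4 were at least 2-fold higher and 1 lower with the wild-type protein than with GST, with a median log2 ratio of 0.96, where 25.5% of all genes were higher and 34.2% lower. DYRK1A had 3867 counts with the wild-type protein, 619 with the mutant and 837 with GST, and SRPK1 had 7759 with the wild-type protein, 1794 with the mutant and 2620 with GST. Of 28 core snRNP proteins, which form the spliceosome itself, 1 was higher and 18 lower (64.3%, median -1.74), with SNRNP70 at -4.04. Of 16 SR-related proteins and U2AF subunits 2 were higher and 8 lower (50%, median -0.84), with U2AF1, which recognises the 3' splice site, at -3.82 and LUC7L2 at 1.48. Of 14 further hnRNPs and relatives 1 was higher, PTBP1, and 6 lower, among them RALY at -3.40, an HNRNPC relative. Of 19 other splicing regulators 3 were higher and 4 lower, with MBNL1 and QKI each at 1.73. Of 14 NMD factors 0 were higher and 4 lower (28.6%). With the mutant against GST 9.0% of all genes were higher and 5.13% lower. Of the lists, 3 snRNP proteins were higher (10.7%), while 1 SR-related protein, 1 further hnRNP, 2 other regulators and 1 NMD factor were lower. None of the 8 kinases passed 2-fold. Over the mutant, 30.1% of all genes were higher and 36.1% lower with the wild-type protein. Of the lists, 4 of 8 kinases were higher and 1 lower, as were 2 and 18 of 28 snRNP proteins. Of 16 SR-related proteins 5 were higher and 7 lower, and of 14 further hnRNPs 3 were higher and 2 lower. Of 19 other regulators 8 were higher (42.1%) and 4 lower, and of 14 NMD factors 0 were higher and 5 lower.

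Several members share sequence with overlapping genes or pseudogenes, which could divide their counts. The share of 31-mers found in other genes was 56.9% for SRSF1, 46.6% for SRSF9, 43.6% for HNRNPUL2, 32.6% for SRSF2, 25.2% for HNRNPA1 and 24.3% for HNRNPK, and 0% for SRSF7, HNRNPLL and HNRNPA0. HNRNPH2 shares 15.2% with the read-through gene RPL36A-HNRNPH2, which had 2351 counts with the wild-type protein, 9103 with the mutant and 19781 with GST. HNRNPAB shares 7.42% with PHYKPL, which had 7933 counts with the wild-type protein, 961 with the mutant and 2543 with GST. PHYKPL lay on the same side as HNRNPAB, at log2 1.56 over GST and 2.82 over the mutant, and its part in the HNRNPAB ratios was not tested. AC015813.2, which shares 53.0% with SRSF1, had 70 counts with the wild-type protein, 58 with the mutant and 66 with GST. The percentages thus do not measure how uncertain the counts of a gene are, and that was not tested.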

How the data were processed

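RNA recovered by each of the 3 proteins was measured in 1 library each. The submitters' processing notes name kallisto, DESeq2 and the hg19 build. Tool versions, the annotation and what DESeq2 was used for were not given in the sources used here. Per the file headers, the authors' deposited tables hold the estimated count of each transcript and its TPM, which is scaled by effective length to a fixed total. The values were used as deposited, with no computed fold change of the authors.

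Of 196354 transcripts 181857 (92.6%) were matched by identifier without version to GENCODE 29 on GRCh38, and 93.2% of these had the same length. Estimated counts, summed per gene over 52992 genes, were rounded to whole numbers. Genes with a mean of at least 10 counts were scaled with TMM in edgeR 4.0.16 (R 4.3.3), with factors of 1.05 for wild type, 0.933 for the mutant and 1.03 for GST. Log2 ratios used a prior count of 0.5. Intervals are exact Clopper-Pearson intervals (95%) on the split of the summed counts, computed in Python 3.11.15 with scipy 1.17.1. They cover counting error, and reads without molecular identifiers are not independent molecules. No test across libraries was made and no p-value is given. The calls were tested on simulated data with known folds and counting error only, so that test does not cover variation between pull-downs. Transcript classes are those of GENCODE 29. The motif was searched as TATTTAT on the sense strand of the 3' UTR of the coding transcript with the highest mean TPM.

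Alternatives were total counts, size factors from DESeq2 1.42.0, totals that leave out the 20 most abundant genes and those of mitochondria and ribosomal RNA, TPM (pseudocount 0.5, minimum 1), no minimum and a minimum of 100 counts, coding transcripts only, transcripts of the same length only, and thinning to the shallowest library. The members and lists were chosen with earlier results of these data known. Named genes are the 8 highest and 8 lowest members of wild type over mutant and the 4 highest and 4 lowest of mutant over GST, by the interval bound nearest 0, with relatives added, and up to 4 genes of each other list. Shifts of class shares, isoforms with and without a site, class shares without SRSF2, HNRNPC or both, class shares over all counts of a gene, the SR protein share without SRSF2 and isoforms of any length were added after the data had been seen. SRSF8 was not analysed here.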

Additional observations from a re-analysis of the deposited data

How the results depend on the processing

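No paired analysis was possible because each group has 1 library. Of the calls over GST with the wild-type protein, 8 of 9 held under all 9 alternatives tried (8 for some genes), and SRSF2 was lost with coding transcripts only. Of the calls over the mutant 9 of 11 held, and HNRNPUL2 (TPM) and HNRNPH3 (-0.54 with coding transcripts only, against 1.39) did not. TRA2A with the mutant against GST was lost with coding transcripts only. Members called only under an alternative numbered 9 over GST, 11 over the mutant and 4 with the mutant against GST. Scaling moved the median of all genes over the mutant to 0.12 with total counts and 0.28 with totals without abundant genes, against -0.04. Scaling shifts every ratio alike, so the members' median over the mutant had to stay 0.10 above that of all genes under both. Where the genes or counts themselves changed, the difference from all genes was not fixed. It was 0.28 with no minimum, 0.06 with TPM, 0.71 with transcripts of the same length only and -0.10 with a minimum of 100 counts. Members higher over GST numbered 6 with totals without abundant genes and 5 with TPM, against 3, and over the mutant 12 with totals without abundant genes, against 6. The share of all genes called was not computed under the alternatives, so these counts do not set the members apart. Members lower with the mutant than with GST numbered 2 with total counts, totals without abundant genes, no minimum or transcripts of the same length only and 3 with TPM, against 1. With transcripts of the same length only 1 was higher, against 0, namely SRSF6 on its NMD transcript alone. For these counts too the share of all genes called was not computed. The median of mutant over GST was -0.60 with totals without abundant genes, against -0.39. The NMD share, for wild type, mutant and GST in turn, had a median over members of 0.015%, 0.629% and 0.0669%, and was 1.89%, 2.77% and 1.73% without SRSF2. It was 2.46% for wild type and 4.61% for the mutant with TPM, 5.15% for the mutant and 2.69% for GST with transcripts of the same length, and 2.46% for GST with all transcripts as the denominator. The retained-intron share, in that order of groups, was 45.9%, 29.5% and 32.9% with TPM, 23.4%, 12.8% and 14.8% with transcripts of the same length, 20.6%, 11.4% and 13.0% with all transcripts as the denominator, 2.57%, 7.90% and 10.7% without SRSF2, 21.5%, 8.59% and 6.97% without HNRNPC and 1.78%, 3.97% and 3.42% without both, with medians over members of 0.0699%, 0.092% and 0.370%. The SR protein share of gene counts was 0.195%, 0.138% and 0.173% without SRSF2. With all counts of the gene as the denominator the NMD share of HNRNPM, wild type minus GST, turned to -8.35 points, against 25.4. With isoforms of any length 2 members had a lower site-bearing share over GST, against 1. The cause was not tested beyond the genes left out. Depth limits SRSF12 most, with 69 counts in the GST library.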
